A study of Mus musculus with 8 samples.

Results

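Transcript levels of 10 lipid droplet and triglyceride storage genes were examined in liver RNA of fructose-fed mice with and without Rbfox2 in hepatocytes. The genes were chosen by name, as the coat proteins Plin2, Plin4 and Plin5, the CIDE proteins Cidea, Cideb and Cidec, the lipase Pnpla2 and its inhibitor G0s2, the patatin-like protein Pnpla3 and the acyltransferase Dgat2, out of 46078 genes in the count table. The WT group held 5 mice that carried floxed Rbfox2 alleles (Rbfox2 LoxP/LoxP) without Cre, and the Rbfox2 KO group held 3 mice with the same floxed alleles and a Cre recombinase driven by the albumin promoter (Alb_cre+), which is active in hepatocytes, so other liver cells keep the gene. Every mouse drank water with 30% (w/v) fructose for 22 weeks, and livers were taken after fasting. The diet was started at 8 weeks of age, and male mice were the default of the study. The comparison asks which storage genes change at the transcript level when this splicing regulator is lost from hepatocytes on a sugar-rich diet.

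Hepatocytes store excess fatty acids as triglyceride in lipid droplets, organelles made of a neutral lipid core under a single phospholipid layer. Acyltransferases make the triglyceride, perilipins coat the droplet and limit access of lipases, CIDE proteins move lipid from smaller to larger droplets or onto lipoproteins, and lipases release the fatty acids again. In liver, this store grows in steatosis and turns over with feeding and fasting.

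Levels are given as CPM, counts scaled to a common library size, scaled between libraries by trimmed mean of M-values (TMM), with the mean ± SD over mice. Total counts ran from 24829693 to 37823155 per library and did not differ detectably between groups (two-sided exact permutation test, p = 0.839). The smallest level that 3 counts can show was 0.0793 to 0.121 CPM on raw library totals, before TMM scaling. Rbfox2 itself (chr15, minus strand) was at 18.9 ± 3.39 CPM in WT and 9.27 ± 2.83 CPM in Rbfox2 KO, and every KO liver lay below every WT liver (two-sided exact permutation test, p = 0.0179, the smallest that 56 splits allow). Its log2 fold change was -1.03 ± 0.21 (SE), with an adjusted p of 0.328 across all genes by edgeR, and 0.00182 by DESeq2. It was -0.85 without Rbfox2 KO 1. Hepatocyte markers summed to between 67298 and 82846 CPM in all libraries. Rbfox2 KO 1 stood apart, with 6.71% of its counts in major urinary protein genes against 17.9% to 35.5% in the other livers, and with 412 CPM of pancreatic exocrine markers against at most 9.93 CPM elsewhere. Where leaving out this library moved a log2 fold change markedly, the value without it is given as well. In such bulk tissue, fewer cells of a type and less RNA per cell cannot be told apart.

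The storage genes were split evenly in direction between genotypes, and Cidea showed the largest difference among them. All 10 genes had enough counts to be tested, and 0 passed an adjusted p of 0.05 by the quasi-likelihood test of edgeR, with adjusted p between 0.904 and 1.0. The same held for all genes tested, of which 0.0% (0 of 14654) passed, with 694 at an unadjusted p under 0.05. At an unadjusted p under 0.05 the test counted 1 of the 10, Cidea, against 4.74% of all genes tested (2.41% higher and 2.33% lower in KO). DESeq2 likewise placed 0 of the 10 past the threshold, while it called 0.409% of the genes it tested, and it counted 2, Cidea and Pnpla2, at an unadjusted p under 0.05, against 4.95% of those genes. Log2 fold changes (KO minus WT) were below 0 for 5 of the 10 genes, against 49.8% of all genes tested, and their median was 0.02, against 0.00096 over all genes. Groups did not overlap for 2 of the 10, Cidea lower and Pnpla2 higher in KO. Over all genes tested, groups did not overlap for 3.71% (1.82% lower and 1.89% higher). Cidea was also the one member with a change larger than 0.5 in size, as were 7.72% of all genes tested. Because the members were chosen with earlier results of these data known, these shares are a description, not an independent comparison.

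**Figure D1:**
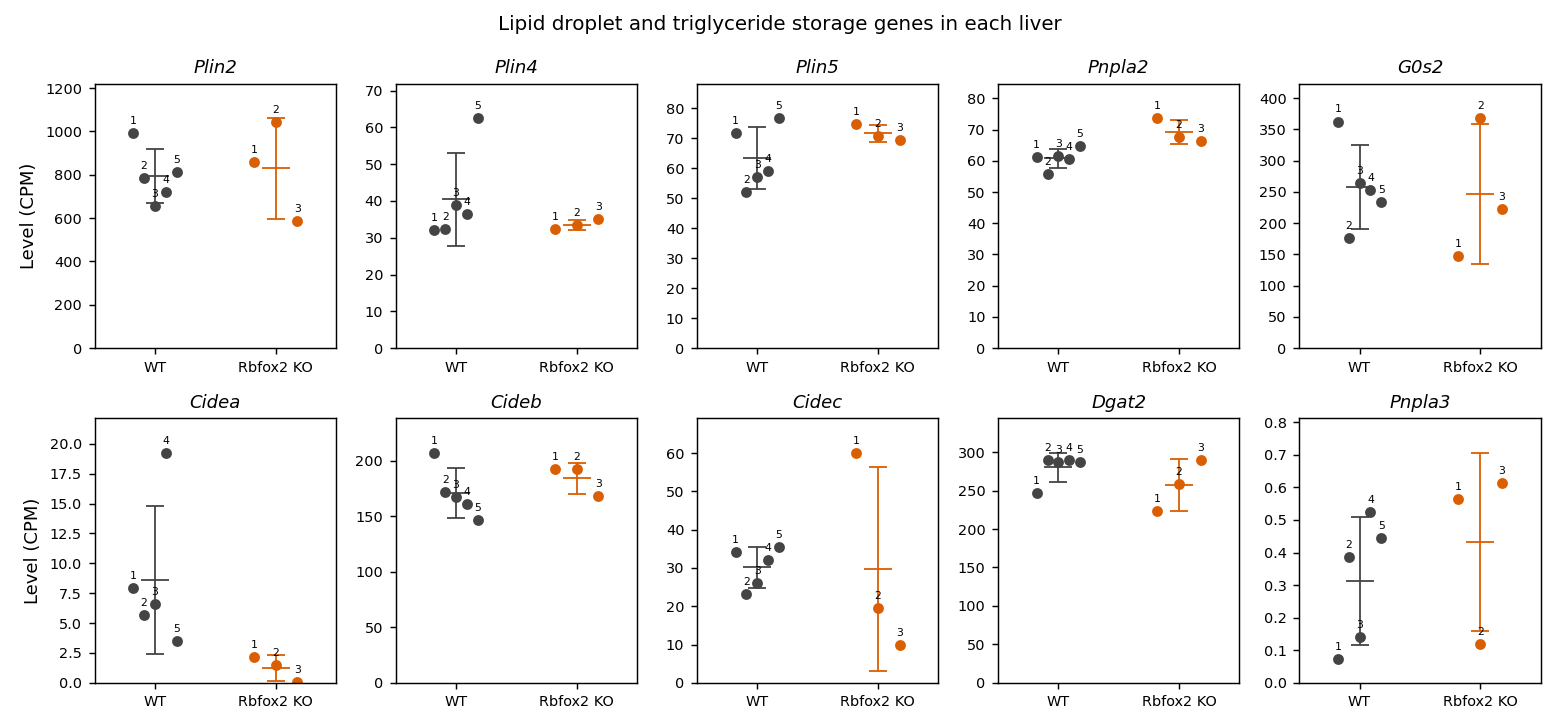
Level (CPM) of each of the 10 genes in each liver, with WT in grey and Rbfox2 KO in orange, the mouse number above each point, and bars for the mean ± SD (WT, n = 5, Rbfox2 KO, n = 3). All 3 KO points for Cidea lie below the lowest WT point, all 3 for Pnpla2 lie above the highest, and the groups overlap for the other genes.

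Among the coat proteins, Plin2 is the perilipin that covers droplets in most cells and the main one of steatotic liver. It lies on the minus strand of chr4 (86648386 to 86670060, GRCm38). Plin2 stood at 993, 786, 657, 722 and 814 CPM in WT 1 to 5 and at 860, 1045 and 584 CPM in Rbfox2 KO 1 to 3. The KO livers held both the highest and the lowest value of the series, so the groups overlapped fully. On the log2 scale the difference was 0.06 ± 0.19, and the 95% interval of the KO to WT ratio ran from 0.776 to 1.41. Without Rbfox2 KO 2 the log2 fold change turned to -0.14, and it was 0.03 without Rbfox2 KO 1. Of the 50-base stretches of its longest transcript, 4.89% also occur in other genes.

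Plin5 covers droplets in cells that burn fat and ties them to mitochondria, and Plin4 is a long coat protein of fat and muscle cells. Their genes are neighbours on the minus strand of chr17 (Plin4 56100591 to 56109803, Plin5 56111601 to 56117596). Plin5 was at 71.7, 52.2, 57.1, 59.1 and 76.7 CPM in WT and at 74.8, 70.8 and 69.4 CPM in KO. The KO values sat together inside the upper WT range, and the log2 fold change was 0.18 ± 0.13. The 95% interval of the ratio was 0.925 to 1.38. Plin4 was at 32.1, 32.4, 38.8, 36.6 and 62.5 CPM in WT and at 32.3, 33.4 and 35.0 CPM in KO. One liver, WT 5, was well above all others, and the rest of both groups fell in a narrow band. The log2 fold change of Plin4 was -0.27 ± 0.21, and -0.06 without WT 5.

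The promoter sequences of Plin2 and Plin5 are shown because, among the members searched, only these coat genes held any of the motifs. Each runs from 250 bases before to 10 bases after the RefSeq start (GRCm38.p6, minus strand, written 5′ to 3′). For Plin2 (chr4:86670050-86670309) the capitals mark TGACCT, the AGGTCA element of nuclear receptors on the opposite strand whose first base lies at -218, and the E-box CACGTG at -4. For Plin5 (chr17:56117539-56117798) the capitals mark AGGTCA at -170.
Plin2: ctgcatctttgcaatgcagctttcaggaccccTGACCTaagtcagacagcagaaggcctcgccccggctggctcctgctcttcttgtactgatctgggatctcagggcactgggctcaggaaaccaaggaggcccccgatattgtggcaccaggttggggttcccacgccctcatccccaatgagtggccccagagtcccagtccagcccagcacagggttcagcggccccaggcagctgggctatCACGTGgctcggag
Plin5: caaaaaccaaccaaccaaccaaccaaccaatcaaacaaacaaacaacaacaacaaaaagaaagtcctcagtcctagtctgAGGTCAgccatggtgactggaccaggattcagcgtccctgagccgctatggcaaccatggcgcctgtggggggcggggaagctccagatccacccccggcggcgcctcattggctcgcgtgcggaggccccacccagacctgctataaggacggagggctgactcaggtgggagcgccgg

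Both strands of 300-base promoters were searched. The E-box was in 1 of 10 member promoters (Plin2) and in 7.15% of 32851 promoters, and AGGTCA was in 3 of 10 (Plin2 and both starts of Plin5) and in 16.3% of all. A direct repeat of AGGTCA with 1 base between was in 0 of the 10 and in 0.0396% of all, and the sterol response element was in 0 of the 10 and in 1.24% of all. The 10 promoters do not cover all members. Cidec and Plin5 have 2 starts each, and the 10 hold no promoter of Cidea or Dgat2. Promoters on chromosome 18, where Cidea lies, were left out of the member search. The single AGGTCA element was searched after the other motifs were chosen, and a match in letters is not a bound site.

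The CIDE proteins differed most from one another. Cidea, best known from brown fat and induced in fatty liver, had counts of 216, 175, 189, 551 and 118 in WT and of 69, 39 and 3 in KO. In CPM these are 7.97, 5.65, 6.64, 19.2 and 3.49 in WT and 2.16, 1.53 and 0.084 in KO. The 3 KO livers were the lowest of the 8, and WT 4 was far above the other WT livers. The log2 fold change was -2.79 ± 0.92, a level 6.90-fold lower in KO with a 95% interval of 1.54 to 31.0, at an unadjusted p of 0.019 and an adjusted p of 0.904 by edgeR. Rbfox2 KO 3 alone, with 3 counts, was at 0.975% of the WT mean (exact Poisson interval 0.201% to 2.85%, counting error only). Leaving out any one library kept Cidea lower in KO, with log2 fold changes between -3.51 (without Rbfox2 KO 1) and -2.21 (without Rbfox2 KO 3). The adjusted p was 0.304 by DESeq2, the lowest among the alternatives tried.

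Cidea is also a gene of fat tissue, so fat markers were read beside it. Ucp1, the defining brown fat gene, was at most 0.502 CPM, in Rbfox2 KO 1, and Adipoq, which defines white fat, stayed under 1 CPM in all 8 livers. The 9 white fat markers summed to 16.1 to 22.4 CPM in WT and to 15.7 to 45.6 CPM in KO. Of this, Lipe, also read below as a lipolysis gene, was at 8.43 to 12.6 CPM in WT and 8.18 to 9.63 CPM in KO. Fabp4 was at 4.84 to 8.98 CPM in WT and 5.78 to 33.4 CPM in KO. The highest sum was in Rbfox2 KO 1, where Fabp4 reached 33.4 CPM, and the lowest in Rbfox2 KO 2. Of the 9 markers, 6 stayed under 1 CPM in all livers, and 0 were at 0 in all of them. Skeletal muscle markers summed to 224 CPM in WT 4 and 309 CPM in WT 5, to 189 CPM in Rbfox2 KO 1 and to between 1.18 and 40.8 CPM in the other livers. Cidea was highest in one of these 3 livers (WT 4) and, among WT livers, lowest in another (WT 5). The part of these markers in the difference in Cidea was not tested.

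Cidec, which joins droplets into larger ones and is abundant in fat cells, was at 34.2, 23.2, 26.1, 32.0 and 35.4 CPM in WT and at 60.0, 19.6 and 9.87 CPM in KO. The KO livers spread around the WT range, with one above it and the others below it. The log2 fold change was -0.02 ± 0.52 and the interval of the ratio, 0.425 to 2.30, was the widest of the members above 10 CPM. Without Rbfox2 KO 1, the library with pancreatic transcripts and the highest Fabp4, the log2 fold change was -1.05. The unadjusted p was then 0.0040, with an adjusted p of 0.931, both by edgeR. Without Rbfox2 KO 3 the log2 fold change was 0.40. The value of Cidec therefore depended on which KO mouse was counted.

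Cideb, the CIDE protein of hepatocytes, helps load lipid onto very-low-density lipoprotein. It was at 207, 171, 167, 161 and 147 CPM in WT and at 192, 192 and 168 CPM in KO. All KO values lay within the WT range, and the log2 fold change was 0.11 ± 0.12 (ratio interval 0.896 to 1.3). Of its exon bases, 76.3% overlap Nop9 on the opposite strand, and strand use in counting was not stated. Reads from the shared bases may therefore have been counted for either gene or for neither. Nop9 was at 12.1 ± 1.23 CPM in WT and 11.9 ± 0.491 CPM in KO.

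Pnpla2 encodes adipose triglyceride lipase, the first enzyme of droplet lipolysis. It was at 61.1, 55.8, 61.7, 60.5 and 64.6 CPM in WT and at 73.7, 67.7 and 66.3 CPM in KO. Every KO liver was above every WT liver, by a small margin. The log2 fold change was 0.19 ± 0.09, a ratio of 1.14 with an interval of 0.999 to 1.3, at an unadjusted p of 0.052 and an adjusted p of 1.0 by edgeR. Pnpla2 varied least of all members in WT, with a coefficient of variation (CV) of 5.25%, and 12% of genes at a similar level (within a factor of 2) varied less. Without Rbfox2 KO 1 the log2 fold change was 0.14, and with library totals in place of TMM the groups overlapped.

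G0s2, a protein that binds and inhibits this lipase, was at 363, 177, 265, 252 and 234 CPM in WT and at 148, 368 and 223 CPM in KO. The KO livers spanned the whole WT range and beyond, with the lowest value of all in Rbfox2 KO 1. The log2 fold change was -0.07 ± 0.30 (ratio interval 0.600 to 1.52), and it was 0.19 without Rbfox2 KO 1 and -0.48 without Rbfox2 KO 2. Neither the lipase nor its inhibitor therefore passed the test.

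Dgat2, which catalyses the last step of triglyceride synthesis, was at 247, 290, 287, 290 and 287 CPM in WT and at 223, 258 and 290 CPM in KO. Apart from WT 1, the WT livers were almost equal, and 2 KO livers lay below those 4. KO minus WT was -0.12 ± 0.11 on the log2 scale (ratio interval 0.771 to 1.09), and -0.04 without Rbfox2 KO 1. Pnpla3, a close relative of the lipase with lipase and acyltransferase activity, was barely expressed, with 2 to 15 counts in WT and 3 to 22 in KO (0.0738 to 0.524 and 0.118 to 0.615 CPM). Its log2 fold change was 0.48 ± 0.62, with a wide ratio interval of 0.539 to 3.59, and no difference was detected. Without Rbfox2 KO 2 the log2 fold change was 0.89, and without Rbfox2 KO 1 it was 0.26. Of its exon bases, 6.78% are shared with a gene on the same strand.

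**Figure D2:**
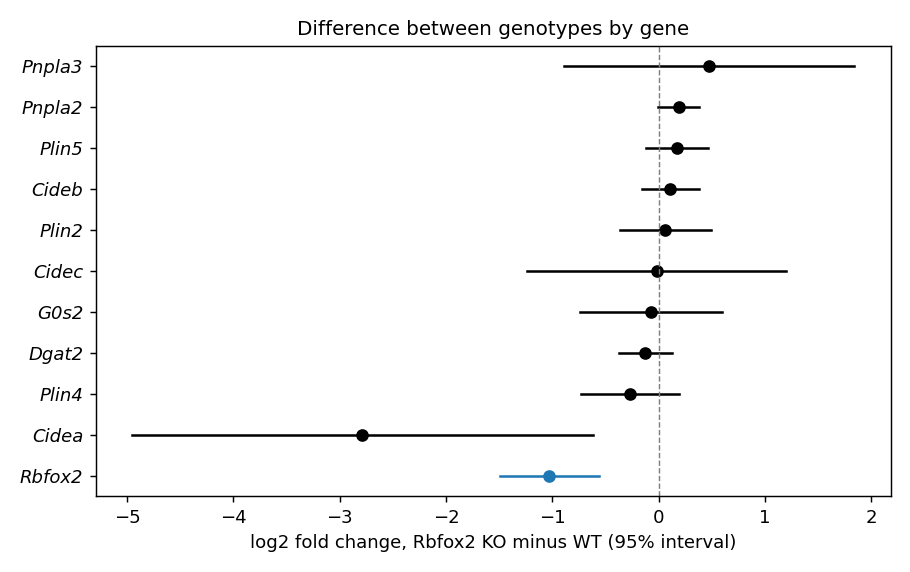
Log2 fold change (Rbfox2 KO minus WT) of each member by edgeR, with the 95% interval as a line, and Rbfox2 in blue below them. The interval of Cidea, -4.95 to -0.62, is the only one of the 10 that excludes 0, before adjustment for the genes tested.

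Per exon length, the order of levels in WT was led by G0s2 at 296 ± 77.4 CPM per kb and Plin2 at 226 ± 36.0 CPM per kb, whose ranges over mice overlapped. Cideb at 115 ± 15 and Dgat2 at 90.9 ± 6.10 CPM per kb followed, each separate from its neighbours. The level of Cideb carries the uncertainty of its overlap with Nop9. Plin5 (30.4 ± 4.98 CPM per kb) was above Pnpla2 (20.1 ± 1.06), and Pnpla2 was not separate from Cidec (16.3 ± 2.86). Cidec, Cidea (7.71 ± 5.54) and Plin4 (7.0 ± 2.19) also overlapped in turn, and Pnpla3 was last at 0.203 ± 0.127 CPM per kb. In KO, Cidea was at 1.13 ± 0.956 and Plin4 at 5.81 ± 0.232 CPM per kb.

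**Figure D3:**
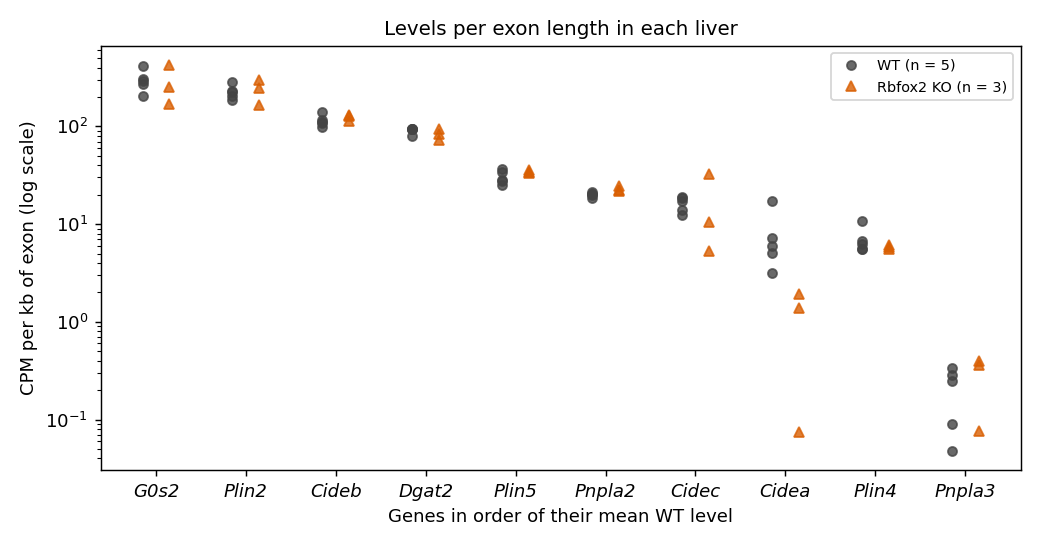
CPM per kb of exon (log axis) in each liver, with WT as grey circles and Rbfox2 KO as orange triangles, genes ordered by their WT mean. WT means span from 0.203 CPM per kb for Pnpla3 to 296 CPM per kb for G0s2, and all 3 KO points for Cidea lie below its WT points.

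The members also differed in how much they varied between WT mice. Cidea had a CV of 71.8%, against a median of 12.8% in genes at a similar level, and 98.3% of those varied less. Without WT 4 it was 31.8%. Pnpla3 followed at 62.5% (87.8% of such genes varied less), from 2 to 15 counts. Plin4 had a CV of 31.2% (97.3%), which was 9.34% without WT 5, and G0s2 had one of 26.1% (94.7%), which was 16.7% without WT 1. Cidec, Plin5, Plin2 and Cideb had CVs between 13.1% and 17.6%, while Dgat2, like Pnpla2, was steady at 6.71%. In the 3 KO mice, the CV of Cidec was 89.2%.

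Over the 8 livers, 0 of 45 pairs of members passed an adjusted p of 0.05 for a correlation of log2 CPM, and 27 of 45 had a positive Pearson r, with a median of 0.07. The pair with the smallest p was Plin4 and Cideb, with r = -0.77 (two-sided exact permutation p = 0.0049, adjusted 0.220) and rho = -0.90 (exact p = 0.0046, adjusted 0.205), and r = -0.77 without the 2 livers farthest from the median of Plin4. With each genotype centred on its own mean, r of this pair was -0.74. The highest positive r was that of Plin5 and Pnpla2, r = 0.77 (exact p = 0.0208, adjusted 0.234) and rho = 0.62 (exact p = 0.115, adjusted 0.641), and it fell to 0.56 without the 2 farthest livers. G0s2 and Pnpla3 had r = -0.79 (exact p = 0.0186, adjusted 0.234) and rho = -0.76 (exact p = 0.0368, adjusted 0.516), and r was -0.74 without the 2 livers farthest from the median of G0s2.

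Genes outside the members whose log2 CPM followed 4 of them most closely over the 8 livers were listed as a description, with the highest r of all genes tested. For Plin2 they were Ap1b1 (r = 0.96), Mtap (0.96) and Gga1 (0.94), and for Cidec they were Acad12 (0.98), Hexa (0.97) and Osbpl3 (0.96). For G0s2 they were Tmem201 (0.97), 1700008J07Rik (0.97) and Maf (0.96), and for Pnpla3 they were Enah (0.97), Lama4 (0.97) and Ogn (0.97). These are the highest among 14654 genes over 8 points that share genotype and library, and no p is given.

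The surrounding pathways were read from 7 lists of 71 genes, 69 of which were tested. Of these, 0 passed the adjusted threshold by edgeR, and their median log2 fold change was -0.03. At an unadjusted p under 0.05, 3 were lower and 2 higher, against 2.33% and 2.41% of all genes tested. Because the lists were chosen with earlier results of these data known, the shares beside them are a description, not an independent comparison. Against 2.33% of all genes tested, 2 of the 13 other coat and biogenesis genes were lower at an unadjusted p under 0.05 (list median 0.02). They were Fitm1 and Fitm2, which encode endoplasmic reticulum proteins needed for droplets to form. Fitm1 was at 38.7, 35.7, 46.2, 38.8 and 30.0 CPM in WT and at 20.6, 27.3 and 17.3 CPM in KO. Its log2 fold change was -0.80 ± 0.17, with an adjusted p of 0.328 by edgeR and 0.00561 by DESeq2, and all KO livers were below all WT livers. Fitm2 was at 67.6, 62.3, 60.4, 66.8 and 65.5 CPM in WT and at 45.8, 59.3 and 46.0 CPM in KO, a log2 fold change of -0.36 ± 0.11 (adjusted p = 0.825 by edgeR), also without overlap. With library totals in place of TMM, the log2 fold change was -0.26 for Fitm2 and -0.68 for Fitm1. The unadjusted p by edgeR was then 0.151 for Fitm2 and 0.0016 for Fitm1. The third named gene, Hsd17b13, a droplet-bound dehydrogenase of hepatocytes, had a log2 fold change of 0.28 ± 0.14, with 606 CPM in Rbfox2 KO 1 against 420 and 394 CPM in the other KO livers, and of 0.06 without Rbfox2 KO 1.

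Among 11 tested enzymes of triglyceride synthesis, 0 passed at an unadjusted p under 0.05 (median 0.01), and the named ones were Mogat1 at -0.77 ± 0.36, Gpat4 at 0.12 ± 0.10 and Agpat3 at 0.08 ± 0.09. Mogat1 was -1.05 without Rbfox2 KO 1 and -0.43 without Rbfox2 KO 3. Among 9 other lipolysis genes 0 passed (median -0.11), with Lipe, hormone-sensitive lipase, at -0.19 ± 0.14, Ces3a at -0.27 ± 0.21 and Ces1f at -0.19 ± 0.17. Without Rbfox2 KO 1 Ces3a was -0.02 and Ces1f 0.01. Among 8 uptake genes 0 passed (median -0.06), with Cd36 at -0.39 ± 0.20, Vldlr at -0.50 ± 0.30 and Acsl5 at 0.11 ± 0.12. Cd36 was -0.62 without Rbfox2 KO 2 and -0.17 without Rbfox2 KO 3. Among 10 transcription regulators 1 was lower at an unadjusted p under 0.05, against 2.33% of all genes tested. This was Srebf1, the driver of lipogenesis, at -0.50 ± 0.15 (27.2 ± 3.32 CPM in KO against 38.4 ± 6.73 CPM in WT, adjusted p = 0.809 by edgeR). With library totals in place of TMM, Srebf1 was at -0.38 (unadjusted p = 0.0615 by edgeR). Creb3l3 was at 0.20 ± 0.10 and Ppargc1a at 0.37 ± 0.24. Among 8 lipogenic genes 0 passed (median -0.16), with Thrsp at -0.78 ± 0.35, Fasn at -0.46 ± 0.22 and Acly at 0.21 ± 0.10. Without Rbfox2 KO 1 Thrsp was -1.30 and Fasn -0.75.

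Of the 10 fasting response genes, 8 had positive log2 fold changes (median 0.27), while 49.8% of all genes tested were below 0. At an unadjusted p under 0.05, 2 were higher, Ehhadh and Fgf21, against 2.41% of all genes tested. Ehhadh, an enzyme of peroxisomal fat oxidation, was at 615, 598, 724, 686 and 755 CPM in WT and at 748, 1334 and 1547 CPM in KO. Rbfox2 KO 1 lay inside the WT range and the other KO livers far above it. Its log2 fold change was 0.84 ± 0.20, with an adjusted p of 0.483 by edgeR and 0.0193 by DESeq2, and it was 1.09 without Rbfox2 KO 1 (adjusted p = 0.140 by edgeR). Fgf21, a fasting hormone of the liver, had a log2 fold change of 0.73 ± 0.25 (adjusted p = 0.894 by edgeR) and of 0.49 without Rbfox2 KO 1. The list summed to 10784 to 12173 CPM in WT and to 7626 (Rbfox2 KO 1), 15215 and 15547 CPM in KO. The part of this spread in the members' values was not tested. Stellate cell markers summed to 193 to 244 CPM in WT and 185 to 285 CPM in KO, and Kupffer cell markers to 177 to 202 and 189 to 253 CPM. Their part in the results was not tested either.

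**Figure D4:**
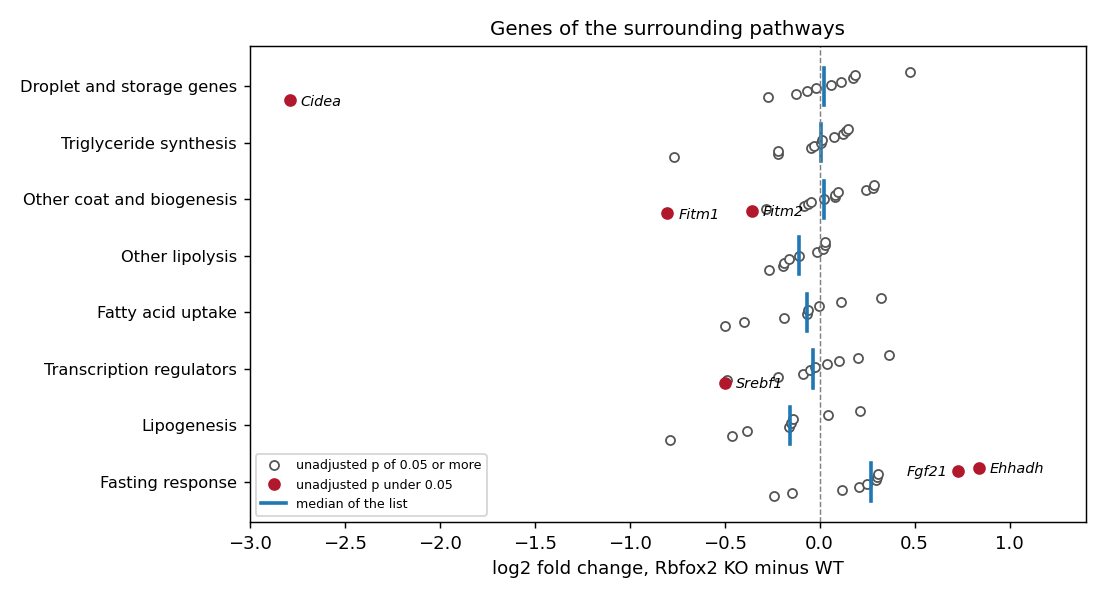
Log2 fold change (Rbfox2 KO minus WT) of each tested gene of the members and of 7 lists, with red points for an unadjusted p under 0.05 and a blue bar at the list median. The medians lie between -0.16 and 0.27, and the named red points are Cidea, Fitm1, Fitm2, Srebf1, Ehhadh and Fgf21.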

How the data were processed

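Poly(A)-selected libraries were prepared from fasted livers of 5 WT and 3 Rbfox2 KO mice, one library per mouse, and sequenced paired-end. The authors aligned reads to GRCm38 (mm10) with TopHat2 2.0.11 after CASAVA (1.8.4 in the submitters' processing notes) and deposited raw read counts per gene from featureCounts. Whether counting used strand, and how multiply aligned reads were treated, is not given in the sources used here, so overlapping genes are uncertain. The authors named DESeq2 or edgeR-voom-limma for differential expression. Gene symbols, positions and exon lengths were taken from GENCODE M21.

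Genes were filtered with filterByExpr, which left 14654, and scaled by TMM. Genotypes were compared by quasi-likelihood in edgeR 4.0.16 (R 4.3.3, robust option, no covariate), and p-values were adjusted by the Benjamini-Hochberg method over all genes tested, at 0.05. SE is the size of the log2 fold change over the square root of F. DESeq2 1.42.0, limma-voom (limma 3.58.1), other scalings, filters and a non-robust fit were alternatives. DESeq2 was run on all genes with its own independent filtering, and genes without an adjusted p were left out. Log2 CPM for correlations used a prior count of 2. Samples were mapped to groups by the labels, which do not describe batches. The members and lists were chosen with earlier results of these data known. Named genes were the members, Rbfox2, the 3 genes of each list with the smallest p, and the 3 genes most like Plin2, Cidec, G0s2 and Pnpla3. The values of 1 named gene are not reported here. Promoters were taken from RefSeq (GRCm38.p6).

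On simulated counts for 14654 genes in the comparison of Rbfox2 KO with WT, the test recovered 63 of 100 genes with a true log2 change of 1 and 91 of 100 with one of 2, with 10 unchanged genes among 164 calls. In the data 0 genes passed, and many true changes, as simulated, ease the adjusted threshold. No simulated library was made to stand apart as Rbfox2 KO 1 did. These rates therefore need not hold for the members. SEs and intervals of fold changes include the spread between mice. The Poisson intervals of single libraries and the floor of 3 counts reflect counting error alone, because reads were not tagged by molecule. The CVs with 1 WT liver left out were added after the data were seen.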

Additional observations from a re-analysis of the deposited data

Results flagged for a closer look

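In each of the 10 members the WT group was searched for a liver whose gap to its nearest neighbour, divided by the range of the 5 values, exceeded the Dixon critical value of 0.71. This was so for 3 members. Plin4 was high in WT 5, with a ratio of 0.781, Cidea was high in WT 4, with a ratio of 0.715, and Dgat2 was low in WT 1, with a ratio of 0.929. By chance about 1 in 20 groups would be marked, and the 3 came from different livers.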

How the results depend on the processing

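The count of members past the adjusted threshold was 0 under all 19 alternatives, while other values moved. The count of all genes past the threshold was 0, and it became 6 with no filter on low counts (1036 at an unadjusted p under 0.05), 59 by DESeq2 and 1 at an adjusted p of 0.1. Members at an unadjusted p under 0.05 numbered 2 with upper quartile factors, by DESeq2 and in the non-robust fit (Pnpla2 joined Cidea in each), and 0 with at least 10 counts in every sample, where Cidea and Pnpla3 were not tested. With one library left out they numbered 1 to 2. Apart from DESeq2 (4.95%), the share of all genes at that p is not given for these settings. The member counts can therefore not be read against it. Members whose groups did not overlap were 1 with library totals, which shift the median of all genes to 0.11. With one library left out they were 2 to 3. The share of all genes without overlap is not given for these settings. With fewer livers, groups separate more easily by chance. Correlated pairs were 1 with library totals (Plin5 and Pnpla2, r = 0.94, exact permutation adjusted p = 0.0056). By DESeq2, Rbfox2 was -1.03 with an adjusted p of 0.00182, and with one library left out it ran from -1.30 to -0.85. Signs turned for Cidec (0.23 with library totals, 0.0244, 0.0053, 0.0489, 0.21 and 0.40 without WT 1, WT 4, WT 5, Rbfox2 KO 2 and Rbfox2 KO 3, down to -1.05 without Rbfox2 KO 1), G0s2 (0.0811 without WT 1, 0.19 without Rbfox2 KO 1, down to -0.48 without Rbfox2 KO 2), Plin2 (-0.14 without Rbfox2 KO 2, up to 0.26 without Rbfox2 KO 3) and Ces1f (0.0132 without Rbfox2 KO 1, down to -0.33 without Rbfox2 KO 2). Of 556 alternative values for single genes, 544 kept their sign and side of the threshold, and Fitm1 and Ehhadh passed it by DESeq2. The cause of these changes was not tested.

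Equal mouse numbers in the 2 groups were correlated at 0.163, 0.0484 and 0.170, and not every mouse correlated best with its own number, so numbers were not taken as pairs. With the number as a replicate block, 1 member had an unadjusted p under 0.05, Cidea was -2.69 (adjusted p = 0.967 by edgeR), the members' median was -0.01, and 0 genes passed the threshold (739 against 694 at an unadjusted p under 0.05).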
